A study of Mus musculus with 4 samples.

Results

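The miR-15 and miR-16 seed family was followed in MIN6 cells, which are insulin-secreting cells of a mouse insulinoma, and in the exosomes that these cells released into their medium. It was taken by name and comprised 10 of the 1915 mature mouse miRNAs listed, namely the 6 strands mmu-miR-15a-5p, mmu-miR-15b-5p, mmu-miR-16-5p, mmu-miR-195a-5p, mmu-miR-322-5p and mmu-miR-497a-5p, which share a seed, and the 4 opposite strands mmu-miR-15b-3p, mmu-miR-16-1-3p, mmu-miR-16-2-3p and mmu-miR-322-3p (the prefix for mouse is left out from here on). Small RNA was sequenced from 2 libraries of untreated MIN6 cells and 2 libraries of exosomes, which had been collected by centrifugation, filtration and ultracentrifugation of medium that MIN6 cells had conditioned with exosome-depleted serum. Nothing in the labels says that the libraries of a group came from separate cultures, so p-values measure the spread between these libraries only. The comparison asked which miRNAs of the parent cell were found, and at what level, in its exosomes.

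A miRNA is cut from a hairpin precursor as a duplex of a 5p and a 3p strand, one of which is usually kept by an Argonaute protein and guides it to messenger RNAs that pair with the seed, the bases 2 to 8 of the strand. The 5p strands of the miR-15/16 family are known for repressing cyclins and the survival factor Bcl2 and thereby holding back cell division. In regenerating mouse pancreas, members of the family have been linked to repression of Neurog3, the transcription factor that starts the endocrine programme. The 3p strands do not carry that seed and are usually regarded as the passenger strands of these hairpins.

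The mature sequences are printed 5′ to 3′ with the seed in capitals, because the shared seed defines the family and the rest of the strand tells its members apart. The 5p strands were as follows.
miR-16-5p: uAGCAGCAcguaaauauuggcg
miR-15b-5p: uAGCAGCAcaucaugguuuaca
miR-15a-5p: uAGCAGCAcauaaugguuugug
miR-195a-5p: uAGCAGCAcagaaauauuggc
miR-497a-5p: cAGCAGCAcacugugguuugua
miR-322-5p: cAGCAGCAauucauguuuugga
The 3p strands with reads, which the comparison turned on, were as follows.
miR-15b-3p: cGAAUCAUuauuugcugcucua
miR-16-2-3p: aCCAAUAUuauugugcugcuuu
miR-16-1-3p: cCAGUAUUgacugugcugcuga
All 6 of the 5p strands had the seed AGCAGCA, and the 4 3p strands had 4 different seeds. The seed AGCAGCA was found in 11 of the listed miRNAs, the other 5 being miR-195b, miR-1907, miR-6342, miR-6353 and miR-6419, and these 5 had no count in any library. Over the whole strand, seed included, miR-195a-5p was the closest to miR-16-5p, with the same base at 19 of 21 positions, whereas miR-15a-5p matched at 16, miR-15b-5p at 14, miR-322-5p at 12 and miR-497a-5p at 11 of 22 positions. The GC content ran from 31.8% in miR-16-2-3p to 50% in miR-16-1-3p and miR-497a-5p. The letters GGAG, CCCU and GGCU, which have been described as motifs of miRNAs sorted into vesicles, were searched on the mature strand and were found in 0 of the 10 members, against 14.0%, 11.3% and 12.5% of the 1851 miRNAs with a sequence. All 10 sequences in the deposited hairpin tables were identical to those of RefSeq (GRCm38.p6).

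The hairpins lie in pairs in the genome (GRCm38.p6). Mir15b and Mir16-2 were placed at chr3:69009772-69009835 and chr3:69009902-69009996 on the plus strand, 66 bases apart, within an intron of the condensin gene Smc4. Mir16-1 was placed at chr14:61631880-61631972 on the minus strand, in an exon of a transcript of the long non-coding RNA gene Dleu2, and the mature strands of Mir15a spanned chr14:61632038-61632096 in an intron of the same gene. Mir497 and Mir195a were placed at chr11:70234717-70234800 and chr11:70235042-70235135 on the plus strand, and Mir322 at chrX:53054255-53054349 on the minus strand, and these 3 overlapped no other annotated gene that is not a miRNA gene. Because Mir16-1 and Mir16-2 give the same miR-16-5p, its reads could not be divided between them. Of the 798 and 542 reads of miR-16-5p in the cell libraries, 788 and 539 were assigned to both hairpins, and only 2 and 0 to Mir16-1 alone and 8 and 3 to Mir16-2 alone.

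The cell libraries held 2930217 and 2564068 mature counts, and the exosome libraries held 47447 and 31409. The floor of detection was set at 3 counts, which stood for 1.02 and 1.17 RPM, the authors' scale of counts relative to the sum of the library, in cells and for 63.2 and 95.5 RPM in exosomes. Floors and intervals reflect counting error alone. The identity of the cells was checked on 13 miRNAs listed for beta cells, namely strands of miR-375, miR-7, miR-200, miR-141, miR-429, miR-182, miR-183 and miR-96. Their restriction to beta cells was not tested. All 13 had a count in both cell libraries, where they held 7.02% and 7.25% of the mature counts. In the exosome libraries 12 and 10 of them had a count, and they held 3.06% and 1.23%. A list of 14 miRNAs of blood, liver, muscle, fibroblasts and endothelium held 0.00515% and 0.00558% of counts in cells and 0.729% and 0.554% in exosomes. In cells 8 and 8 of its miRNAs were counted, and in exosomes 12 and 10. The muscle miRNAs miR-133a-3p and miR-206-3p were at 0 in all 4 libraries, whereas miR-1a-3p was counted in both cell libraries and in the first exosome library. Of the blood miRNAs, the erythroid miR-451a and miR-142a-3p had no count in either cell library and were counted in both exosome libraries. miR-144-3p had none in cells and was counted in the first exosome library alone. miR-223-3p was counted in the first cell library, miR-142a-5p in the second and miR-150-5p in both, and each was counted in both exosome libraries. The part of these miRNAs in the values of the family was not tested. The exosome libraries also differed from each other, with let-7 and miR-98 strands holding 40.9% of the counts in the first and 14.6% in the second, against 68.8% and 67.3% in cells. Because cell and exosome libraries were checked on different instruments, any difference in their handling cannot be told apart from the group. All levels are shares of a library, so the amount of a miRNA per vesicle and the amount of the other small RNA around it cannot be told apart.

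In MIN6 cells, the family was read mainly from a 3p strand. miR-15b-3p reached 1890 and 1937 RPM (5537 and 4966 counts), and it alone held 71.0% and 73.4% of the family's reads. miR-16-2-3p followed at 313 and 330 RPM, and miR-16-5p, the best known member, at 272 and 211 RPM. miR-15b-5p was found at 140 and 124 RPM, with 13.5 and 15.6 reads of the opposite strand for each of its own. These 4 strands kept the same order in both cell libraries, with no overlap between neighbours.

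The other strands were rare in the cells. miR-497a-5p was found at 19.8 and 14.8 RPM and miR-16-1-3p at 13.3 and 8.97 RPM. miR-15a-5p, at 6.48 and 6.24 RPM, and miR-195a-5p, at 7.17 and 5.07 RPM, overlapped and could not be ordered. miR-322-5p and miR-322-3p, the X-linked members, had no count in either cell library, which allows up to 1.17 RPM in the less deeply sequenced one. In total, 8 of the 10 members were counted in both cell libraries. All members were 21 or 22 bases long.

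**Figure D1:**
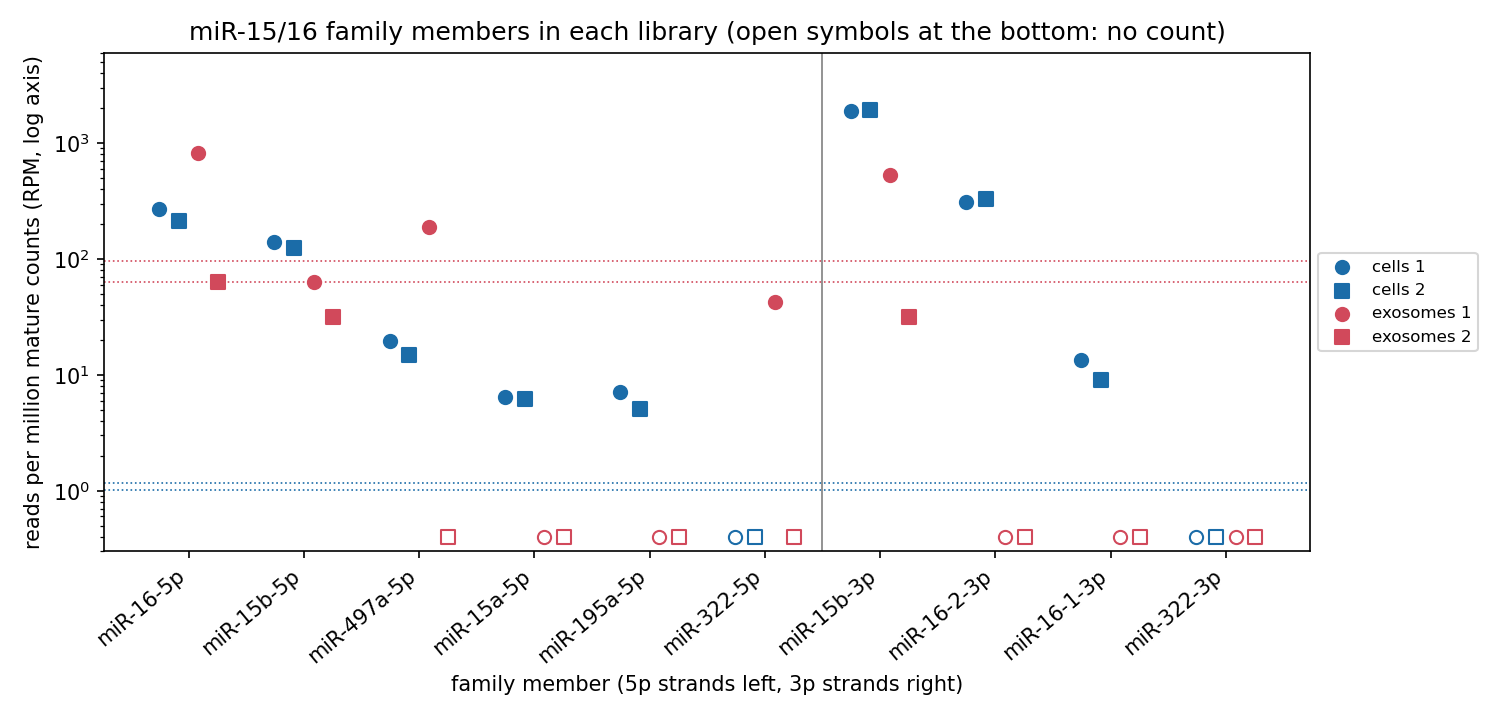
RPM (log axis) of the 10 members in each of the 4 libraries, with 5p strands to the left of the vertical line and 3p strands to the right. Open symbols at the bottom mark a count of 0, and dotted lines mark the floor of 3 counts in each library (1.02 and 1.17 RPM in cells, 63.2 and 95.5 RPM in exosomes), which lies above the cell level of miR-497a-5p, miR-15a-5p, miR-195a-5p and miR-16-1-3p.

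In the exosomes, the family was scarce and differed between the 2 libraries. It held 7799 and 6763 counts in cells, or 0.266% and 0.264% of the mature counts, and 78 and 4 counts in exosomes, or 0.164% (95% Wilson interval 0.132 to 0.205) and 0.0127% (0.00495 to 0.0327). At the mean share of the cells, 126 and 83.2 counts would have been found in exosomes at this depth. The share was lower in both exosome libraries than in both cell libraries, and the exact two-sided permutation test gave p = 0.333, the smallest value that 2 against 2 libraries allow.

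Of the 10 members, 6 had enough counts for the test across all miRNAs, and 3 of these 6, miR-15b-3p, miR-15b-5p and miR-16-2-3p, were lower in exosomes (edgeR quasi-likelihood test, Benjamini-Hochberg adjusted p under 0.05). None of the 6 was higher. Over all 438 miRNAs tested, 29.5% were lower and 23.7% were higher in exosomes (53.2% in either direction), with a median log2 fold change of -0.75. A member such as miR-16-2-3p passed the filter on low counts through the cell libraries alone, so the count of members that were lower is not evidence about the family. The groups did not overlap for 4 of the 6 members, against 85.2% of all miRNAs tested. With library size alone in place of TMM normalization, the median of all miRNAs moved to 0.61 and 1 of the 6 members, miR-16-2-3p, stayed past the threshold.

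miR-15b-3p, the main family strand of the cells, was lower in both exosome libraries than in both cell libraries. It was counted 5537 and 4966 times in cells and 25 times and once in exosomes, which is 2866 and 3164 TMM-normalized counts on the scale of RPM (CPM) in cells against 295 and 23.3 in exosomes. The groups did not overlap, and the first exosome library stood well above the second. The log2 fold change was -4.11 ± 0.99 (SE, n = 2 against 2, adjusted p = 0.0314 by the edgeR quasi-likelihood test). With library size alone it was -2.70 and was no longer past the threshold (adjusted p = 0.107). A change of scaling shifts all miRNAs nearly alike, so a fold change relative to their median in the same fit barely moves by construction. Over TMM, RLE, upper quartile, library size alone and DESeq2, that relative log2 fold change of miR-15b-3p lay between -3.43 and -3.31. The log2 fold change itself depended on the exosome library, with -6.64 without the first and -3.25 without the second. That is -4.11 and -2.27 relative to the median of all miRNAs in those fits.

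miR-15b-5p, the seed-bearing strand of the same hairpin, was counted 409 and 319 times in cells and 3 times and once in exosomes. The groups did not overlap, although both exosome libraries were at or below the floor. The ratio of the summed counts, scaled by TMM, put it 6.64-fold lower in exosomes (95% exact interval 2.58 to 24.4), and the test gave an adjusted p of 0.0143 (edgeR quasi-likelihood test). By library size alone the ratio was 2.61-fold (1.02 to 9.61) and the adjusted p of the fit was 0.120. Here too, scaling barely moves a value relative to the median. The log2 fold change relative to the median of all miRNAs was -2.0 under each of the same 5 scalings with all 4 libraries. Without the first exosome library it was -0.25 relative to that median, and without the second -1.47.

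miR-16-2-3p was counted 918 and 846 times in cells and not at all in exosomes. Its cell level would have given 43.0 and 21.8 counts in the exosome libraries under TMM normalization, or 15.3 and 10.1 by RPM. Against the floor of 3 counts in each exosome library it was at least 9.64-fold lower in exosomes under TMM normalization (adjusted p = 0.0102, edgeR quasi-likelihood test) and at least 4.03-fold lower by library size alone (adjusted p = 0.0138). It passed the filter on low counts through the cell libraries alone. These p-values therefore lean on the group where it was high and are not evidence beyond the counts. Among all miRNAs tested, 8.68% had no count in either exosome library. Of the 474 miRNAs with a count in cells and none in either exosome library, it had the highest level in cells. It was thereby also the 1 without an exosome count among the 110 miRNAs with a mean cell level at least as high. Over the alternatives the bound ran from 4.03-fold to 24.1-fold, the latter without a filter, and it was 5.62-fold without the first exosome library.

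miR-16-5p, which comes in part from the same hairpin, did not show a difference that both exosome libraries shared. It was counted 798 and 542 times in cells and 39 times and 2 times in exosomes, which is 413 and 345 normalized CPM in cells and 460 and 46.6 in exosomes. The first exosome library stood above both cell libraries and the second below both, so the groups overlapped. The log2 fold change was -0.49 ± 0.92 (SE, adjusted p = 0.661, edgeR quasi-likelihood test), and it was 0.15 with upper quartile scaling and 0.93 by library size alone, neither past the threshold. Without the first exosome library it was -2.66 (adjusted p = 0.0123), where the median of all miRNAs was -2.53, and without the second it was 0.37 (adjusted p = 0.313), where the median was -0.98.

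The difference between the exosome libraries was large for these strands. In RPM, miR-15b-3p was 16.5-fold and miR-16-5p 12.9-fold higher in the first exosome library than in the second, and among 229 miRNAs with at least 10 exosome counts and a count in both libraries, 5 and 8 had a larger ratio. The median log2 ratio over these 229 miRNAs was 0.60. The ratio of miR-15b-3p to miR-16-5p within a library, which no scaling can change, was 6.94 and 9.16 in cells and 0.641 and 0.500 in exosomes, so that this order was the reverse of that in cells in both exosome libraries, in the second from 3 reads.

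miR-497a-5p, from the hairpin next to Mir195a, was counted 58 and 38 times in cells and 9 times and not at all in exosomes. The first exosome library stood above the cells at 106 normalized CPM against 30.0 and 24.2, and the second had no count, so the groups overlapped and the log2 fold change of 1.26 ± 0.96 was not past the threshold (adjusted p = 0.308, edgeR quasi-likelihood test). Without the second exosome library it was 2.06 with an adjusted p of 0.0154, and that value rests on 9 reads of the first.

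The remaining members could not be compared at this depth. miR-16-1-3p had 39 and 23 counts in cells and none in exosomes, where its cell level would have given 1.48 and 0.748 counts under TMM normalization, and its adjusted p was 0.0873. By the exactTest in edgeR, with the limits that the study names (a fold change of 2, unadjusted p under 0.05), it would be called lower (p = 0.0392), as would 37.9% of all miRNAs tested. miR-15a-5p and miR-195a-5p had 19 and 16 and 21 and 13 counts in cells, none in exosomes, and were not tested. miR-322-5p had 2 counts in the first exosome library alone, below the floor, and miR-322-3p had no count in any library.

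**Figure D2:**
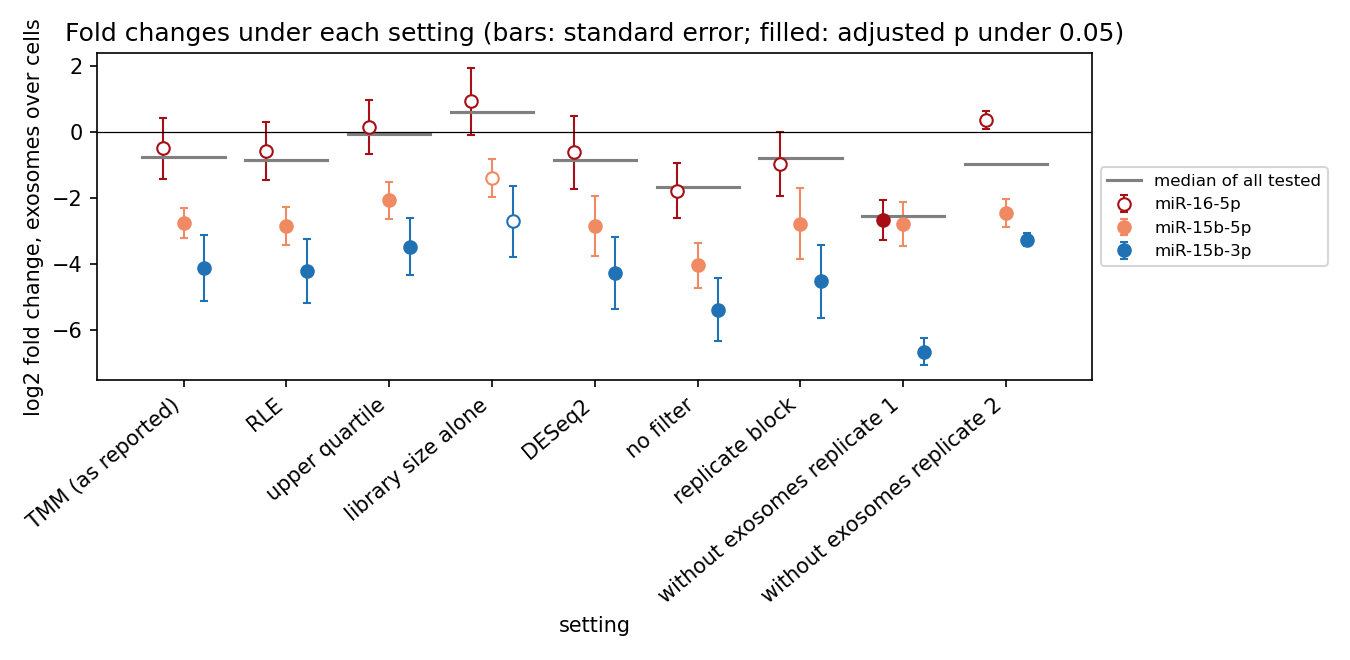
Log2 fold change (exosomes over cells) of miR-16-5p, miR-15b-5p and miR-15b-3p under 9 settings, with the standard error as bars, filled symbols for an adjusted p under 0.05 and a grey line for the median of all miRNAs tested in that setting. miR-16-5p lies near the grey line in most settings and changes sign between them, whereas miR-15b-3p lies below the line in each.

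The make-up of the family differed between cells and exosomes. The 5p strands held 1305 and 928 of the family's reads in cells, or 16.7% and 13.7%, and 53 of 78 reads in the first exosome library, or 67.9% (95% Wilson interval 57.0 to 77.3). In the second exosome library they held 3 of 4 reads, or 75.0% (30.1 to 95.4), an interval that does not reach the cell values but rests on 4 reads. In both exosome libraries this share was above that of both cell libraries (exact two-sided permutation test, p = 0.333, the smallest possible). As a share of all mature counts, the 5p strands did not separate the groups, with 0.0445% and 0.0362% in cells and 0.112% and 0.00955% in exosomes. The 3p strands did, with 0.222% and 0.228% in cells and 0.0527% and 0.00318% in exosomes, the last from 1 count.

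**Figure D3:**
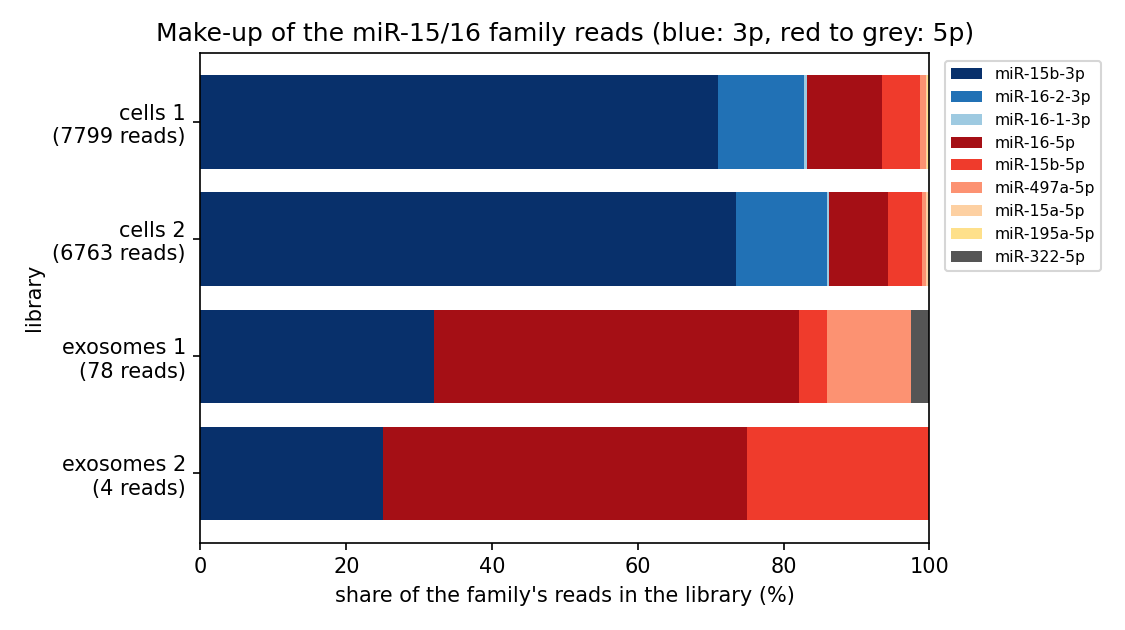
Share of the family's reads held by each member in each library (horizontal bars, %), with 3p strands in blue and 5p strands in red to grey and the number of reads beside the library. miR-15b-3p holds 71.0% and 73.4% of the reads in cells, and miR-16-5p holds 50% in both exosome libraries, the second of them from 4 reads.

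Within single hairpins, the share of 5p reads on mir-16-2 was higher in the first exosome library than in cells, and the second had too few reads to settle it. On mir-15b the few exosome reads did not settle a difference. On mir-16-2, where miR-16-5p and miR-16-2-3p face each other, 46.5% and 39.0% of the reads on both arms were 5p in cells, against 39 of 39 reads in the first exosome library (100%, interval 91.0 to 100) and 2 of 2 in the second (34.2 to 100). The interval of the second held both cell values. Because miR-16-2-3p had no count in exosomes, the share there is 100% for any number of 5p reads. On mir-15b, 6.88% and 6.04% were 5p in cells and 3 of 28 reads, or 10.7% (3.71 to 27.2), in the first exosome library, so that the interval held both cell values. The second exosome library had 2 reads on mir-15b, 1 on each arm. For both hairpins the exact permutation test gave p = 0.333, and for miR-16-5p the reads of mir-16-1 are counted on mir-16-2 as well, which can raise the 5p share there in all libraries.

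The low 5p share of mir-15b was not unusual among hairpins of all kinds. Hairpins that usually keep the 5p strand were not compared separately. Of 167 hairpins with both arms listed and at least 100 reads on them in each cell library, 71 had more than 50% of reads on the 5p arm, and 56 had a lower 5p share than mir-15b. Of 100 hairpins that also had at least 20 such reads in the first exosome library, the interval of that library lay above both cell values for 25, mir-16-2 among them, and below both for 16. On the other hairpins of the family, mir-15a gave 14.2% and 16.3% 5p reads in cells, mir-195a 35.0% and 28.3%, mir-16-1 95.3% and 95.9% and mir-497a 96.7% and 97.4%. In exosomes mir-15a had no reads, mir-195a had 1 and mir-497a had 9 on its arms.

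**Figure D4:**
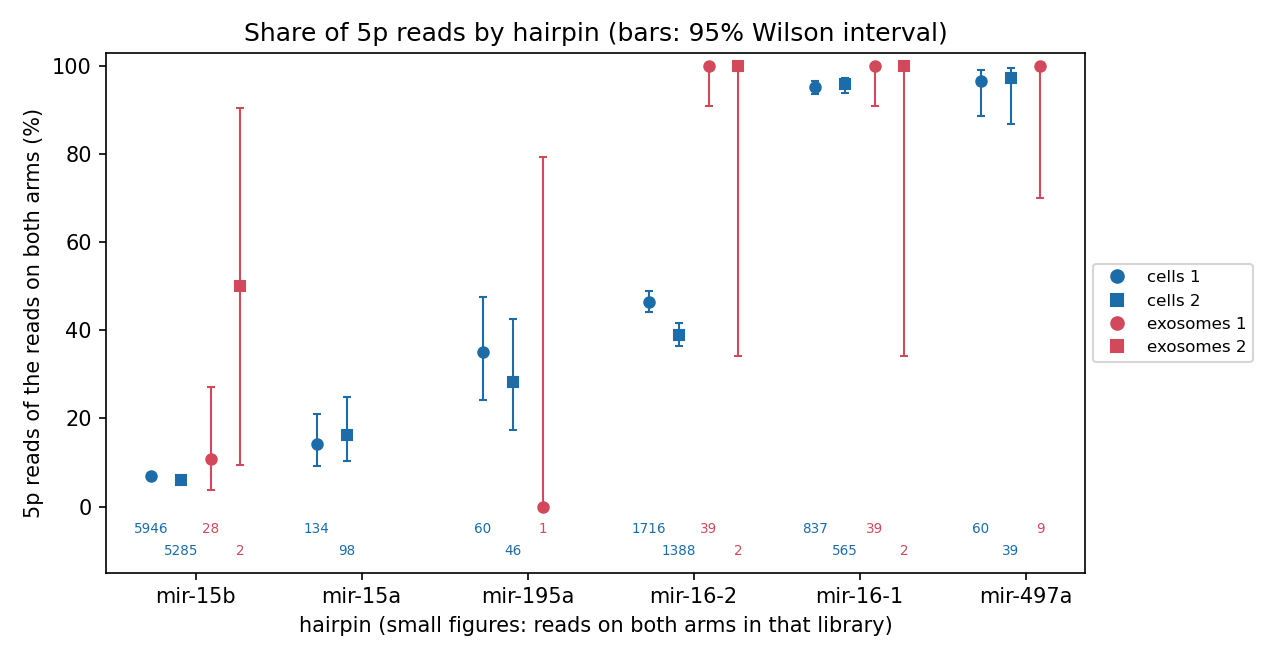
Share of 5p reads (%) of the reads on both arms of 6 family hairpins in each library, with 95% Wilson intervals as bars and the number of reads in small print under each symbol. The exosome libraries stand at 100% on mir-16-2, above 46.5% and 39.0% in cells, the second from 2 reads with an interval that holds both cell values. On mir-15b the first exosome library stands at 10.7% with an interval that holds both cell values.

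Reads that fell on neither annotated arm were few for the family. They numbered 4 of 8747 and 5 of 7423 reads on its hairpins in cells and 2 of 120 and 0 of 6 in exosomes, with a read counted on each hairpin it was assigned to. Over all hairpins, 10.9% and 9.58% of the reads fell on neither arm in cells and 32.8% and 42.0% in exosomes. The 2 such reads in exosomes lay on mir-497a, beside 9 reads of its 5p strand.

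Among 22 relatives, chosen as other strands of these hairpins, products of neighbouring hairpins, other miRNAs with the seed and miRNAs with a shifted seed, 16 had no count in any library, including miR-503-5p and the miR-542 and miR-450 strands encoded near Mir322. Of the 5 that were tested, 1 was lower and 1 was higher in exosomes. The lower miR-15a-3p passed the filter on low counts through the cell libraries alone, and the higher miR-351-5p through the exosome libraries alone. Their p-values therefore lean on the group where each was high and are not evidence about the relatives. miR-15a-3p, the strand opposite miR-15a-5p, had 115 and 82 counts in cells and none in exosomes (adjusted p = 0.0298, edgeR quasi-likelihood test). It was at least 1.06-fold lower under TMM normalization. By library size alone no change was detectable at this depth (adjusted p = 0.0822, same test), nor without the first exosome library. Under upper quartile scaling the bound did not exclude an unchanged level, although the adjusted p was 0.0455 (same test). miR-351-5p, encoded near Mir322 but with another seed, had no count in cells and 14 and 7 counts in exosomes, at least 94.7-fold higher under TMM normalization (adjusted p = 0.00659, edgeR quasi-likelihood test). That bound was 38.6-fold without a filter, 54.8-fold without the first cell library and 237-fold by library size alone. The members at the same locus, miR-322-5p and miR-322-3p, had 2 and 0 counts in exosomes.

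miR-103-3p and miR-107-3p, products of Pank gene introns, carry the family's seed letters shifted by a base, with their own seed in capitals.
miR-103-3p: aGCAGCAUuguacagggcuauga
miR-107-3p: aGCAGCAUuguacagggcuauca
miR-103-3p was counted 942 and 822 times in cells and 27 and 4 times in exosomes (log2 fold change -1.22 ± 0.62, adjusted p = 0.163, edgeR quasi-likelihood test), and miR-107-3p 176 and 145 times in cells and 9 and 4 times in exosomes (0.14 ± 0.36, adjusted p = 0.750). miR-103-3p and miR-16-2-3p each had 1764 counts over the 2 cell libraries, and in exosomes the first had 31 counts and the second 0. The difference between the 2 miRNAs was not tested.

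The 5 miRNAs whose pattern over the 4 libraries was nearest to that of miR-16-5p, by the Euclidean distance of centred log2 normalized CPM, were miR-331-5p, miR-92b-5p, miR-7224-3p, miR-879-3p and miR-702-3p, at distances of 0.41 to 0.58. Each had 1 count in the first exosome library and none in the second, so their likeness leans on the prior count added before the logarithm. Among the 230 other tested miRNAs with at least 10 exosome counts, a restriction chosen after seeing the data, the nearest were miR-505-5p at 0.63, with 477 and 470 counts in cells and 24 and 2 in exosomes, and then miR-103-3p, miR-93-5p, miR-130a-3p and miR-532-3p at 1.10 to 1.16. None of these 5 was past the threshold, with adjusted p-values of 0.102 to 0.514 (edgeR quasi-likelihood test).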

How the data were processed

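Small RNA of MIN6 cells and of their exosomes (2 libraries each) was sequenced on the HiSeq2500 from SMARTer smRNA-Seq libraries. After adapter trimming and removal of rRNA reads, the authors aligned reads stepwise to the genome, to miRBase v21 and to RNAcentral v10.0. They deposited whole-number counts per mature miRNA and RPM values, which were checked to equal counts scaled by the library total. They also deposited, per library, counts for each hairpin and on neither arm, as well as other columns of joined reads per arm, which gave the split of miR-16-5p between its hairpins. The submitters' processing notes name cutadapt, Bowtie, Bowtie2, STAR, RSEM, edgeR and the build mm10, without versions.

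Groups were taken from the sample titles. filterByExpr (minimum count 10) left 438 of 1101 miRNAs with a count. The main comparison used edgeR 4.0.16 (TMM normalization, glmQLFit and glmQLFTest, the quasi-likelihood test), with Benjamini-Hochberg adjusted p under 0.05 as the threshold. The common dispersion was 0.164. A miRNA with no count in a group was given a bound against the floor of 3 counts per library, and no fold where the bound did not exclude an unchanged level. For miR-15b-5p, which had 3 and 1 counts, the ratio with its exact interval was given in place of a bound. Shares carry 95% Wilson intervals, and values of single measures were compared by exact permutation. Normalized CPM are counts over the TMM-scaled library size. The fit was tested on simulated data, drawn at the same common dispersion in both groups. That setting leaves out the larger spread between the exosome libraries. Mature sequences came from the deposited tables and RefSeq, and loci from RefSeq and GENCODE vM21 (GRCm38.p6).

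The text names the 10 members, the other strands of their hairpins and clusters, miRNAs with the seed or a shifted seed, and the 5 nearest patterns to miR-16-5p. The members and lists were chosen with earlier results of these data known. Alternatives were RLE, library size alone, upper quartile, DESeq2 1.42.0, exactTest, other filters, the replicate block, removal of the 5 top miRNAs of either group, other denominators and each library left out. R 4.3.3, Python 3.11.15, scipy 1.17.1 and matplotlib 3.10.9 were used.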

Additional observations from a re-analysis of the deposited data

How the results depend on the processing

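Of the 438 miRNAs tested, 233 were called (104 higher, 129 lower). The count was 167 with library size alone, of which 82.0% were higher against 44.6% with TMM and 57.6% of 224 with upper quartile scaling, and 77 of 100 where at least 10 counts were required in every library, a filter that tested no family member. Leaving out single libraries gave 102 to 277 calls, the lowest without the second cell library and 121 without the first. The number of family members called was 3 of 6 as reported and 1 of 6 under scaling by library size. Without a cell library 3 members were tested, and without an exosome library 8.

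miR-15b-3p (-2.70) and miR-15b-5p (-1.39) were not past the threshold with library size alone, and leaving out single libraries gave -6.64 to -3.25 and -2.79 to -2.45. Relative to the median of all miRNAs in the same fit, miR-15b-5p was -0.25 without the first exosome library. miR-16-5p turned to 0.15 with upper quartile scaling and 0.93 with library size alone, and ran from -2.66 to 0.37 without single libraries. miR-16-1-3p came past the threshold without a filter (adjusted p = 0.0483, edgeR quasi-likelihood test) and by exactTest (p = 0.0392), and without the first or the second exosome library its adjusted p was 0.403 and 0.144. DESeq2 gave it no adjusted p. miR-497a-5p turned to -0.057 without a filter and ran from -8.01, a fitted value against a group at 0 counts and no bound, to 2.06 without single libraries. The log2 bound of miR-16-2-3p ran from -3.95 to -2.49 without single libraries. The cause of these changes was not tested. Without the first or the second cell library, miR-15b-5p, miR-16-1-3p and miR-497a-5p were left without a test.

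The exosome minus cell difference in the 5p share of all mature counts, 0.0203 percentage points, turned to -0.0266 when let-7 and miR-98 were left out of the denominator, and ran from -0.0308 to 0.0713 without single libraries. That of the 5p share of arm reads ran from 53.5 to 61.0 points on mir-16-2 and from 4.26 to 43.5 on mir-15b. With the replicate number as a block (replicate block), 226 miRNAs were called and no call on a member changed. With 2 pairs, whose deviations correlated at 0.17, the numbers were not taken to pair the libraries. Depth limits the exosome values, with 4 family reads in the second library.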
